A study of Mus musculus with 6 samples.

Results

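Branched-chain amino acid catabolism was followed through 10 genes, from the first transamination to the leucine and valine branches, in RNA sequencing of mouse glomeruli. The genes were Bcat1, Bcat2, Bckdha, Bckdhb, Dbt, Bckdk, Ppm1k, Ivd, Mccc1 and Hibadh. All 10 were found among 57132 gene rows, and all 10 were among the 19927 genes that held enough counts to be tested. The members were chosen by the measured Bcat1 counts of these same libraries, which were higher with Cre, and the other 9 were taken as the enzymes and regulators next to it. The values of Bcat1 between the genotypes are therefore given as a description, with no test, and the counts over the members describe genes chosen with results of these data in view.

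Glomeruli, the filtering units of the kidney, came from 3 Cre+/Setdb2fl/fl samples (Cre_positive) and 3 Cre-/Setdb2fl/fl samples (Cre_negative). Every sample carried floxed Setdb2 alleles and was labelled as diabetic kidney disease. Per the series' design text, the comparison concerns SETDB2 of podocytes, the epithelial cells around the glomerular capillaries. Cre driver, diabetes model, age and sex are not stated in the labels or that text. No label says that replicates are different animals, so each p-value reflects only the variation among these samples, part of which may be technical.

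Leucine, isoleucine and valine lose their amino group first, in a reversible step run by a cytosolic transaminase (BCAT1) or a mitochondrial one (BCAT2), with glutamate as the product. The resulting ketoacids are committed to breakdown by the mitochondrial branched-chain ketoacid dehydrogenase complex, which a kinase (BCKDK) switches off and a phosphatase (PPM1K) switches on. Each ketoacid then follows its own route to acetyl-CoA, acetoacetate or succinyl-CoA. Kidney tubules are known as a site of this breakdown.

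Libraries held 53571438 to 57673468 counts in Cre_positive and 55448480 to 58807042 in Cre_negative. Setdb2, the targeted gene, had 427, 444 and 391 counts in Cre_positive replicates 1, 2 and 3 and 591, 492 and 370 in the Cre_negative ones (log2 fold change -0.12, SE 0.18, adjusted p = 0.738 in edgeR's quasi-likelihood test). Its counts overlapped between the genotypes, so they are no check of the labels, and the excised exons cannot be seen in counts per gene. One library stood apart: Xist had 24 counts in Cre_positive replicate 2 and 36474 to 47632 in the other 5 libraries. The Y-linked count was 0 in each of the 6 libraries, Cre_positive replicate 2 included. Why Xist was low in that library was not tested, and results are also given without it. None of 10 podocyte markers was at 0 in every library, and their summed CPM (counts scaled to a common library size with TMM factors) was 793 to 882 in Cre_positive and 609.99 to 713 in Cre_negative. Markers of the proximal tubule, which are not glomerular, summed to far more, as given with the members below.

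Start site sequences are shown for 4 members that differ in how they behaved between the genotypes: Bcat1, Ivd and Mccc1, and Bckdk, whose groups overlapped. Each window is 300 bases long, mostly upstream of a start site, is taken from RefSeq (GRCm38.p6, another build than the GRCm39 of the submitters' processing notes) and is written 5′ to 3′ on the gene's strand. Capitals mark matches to a CCAAT box (CCAAT or ATTGG), a GC box (CCGCCC or GGGCGG) or a TATA box (TATAAA or TTTATA). No matches overlapped in these windows.
Bcat1 (chr6:145076108-145076407, minus strand): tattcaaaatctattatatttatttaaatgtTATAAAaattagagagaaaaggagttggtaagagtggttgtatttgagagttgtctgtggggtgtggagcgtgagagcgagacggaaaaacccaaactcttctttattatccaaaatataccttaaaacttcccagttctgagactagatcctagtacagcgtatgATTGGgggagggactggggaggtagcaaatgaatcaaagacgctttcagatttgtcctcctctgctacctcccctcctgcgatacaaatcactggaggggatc
Ivd (chr2:118861744-118862043, plus strand): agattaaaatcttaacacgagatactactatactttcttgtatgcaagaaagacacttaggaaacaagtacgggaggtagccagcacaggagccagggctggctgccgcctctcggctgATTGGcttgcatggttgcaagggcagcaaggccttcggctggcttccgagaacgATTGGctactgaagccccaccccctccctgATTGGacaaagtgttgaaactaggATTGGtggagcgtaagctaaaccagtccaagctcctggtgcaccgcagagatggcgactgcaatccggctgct
Mccc1 (chr3:36000629-36000928, minus strand): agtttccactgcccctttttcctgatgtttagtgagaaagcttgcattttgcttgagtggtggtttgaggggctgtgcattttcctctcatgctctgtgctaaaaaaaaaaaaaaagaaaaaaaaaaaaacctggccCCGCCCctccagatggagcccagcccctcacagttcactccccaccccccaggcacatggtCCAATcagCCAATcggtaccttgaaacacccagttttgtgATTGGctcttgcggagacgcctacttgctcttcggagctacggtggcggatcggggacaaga
Bckdk (chr7:127903823-127904122, plus strand): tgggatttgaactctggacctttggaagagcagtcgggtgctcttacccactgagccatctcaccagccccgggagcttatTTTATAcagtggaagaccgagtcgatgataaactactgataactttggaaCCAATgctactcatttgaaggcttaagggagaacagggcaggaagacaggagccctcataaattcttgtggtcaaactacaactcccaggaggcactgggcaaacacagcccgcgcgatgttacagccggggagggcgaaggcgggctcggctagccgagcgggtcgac

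In the Ivd window, 4 CCAAT boxes were found, and in that of Mccc1 3 CCAAT boxes and 1 GC box. The Bcat1 window shown and the Bckdk window each held 1 CCAAT box and 1 TATA box. The other Bcat1 window (chr6:145048763-145049062, minus strand), which is not shown, held no CCAAT, GC or TATA box. The Bckdha window, also not shown, held none of them either. RefSeq windows were found for 9 of the 10 members, 12 windows in all, since Bcat1, Bcat2 and Bckdhb have a pair each. A CCAAT box stood in 8 of the 12 windows, from 7 members, against 37.4% of all 32851 windows in the table. A GC box stood in 4 windows, against 35.7% of all windows, and a TATA box in 2, against 13.6%. The E-box CACGTG, found in 7.15% of all windows, was in none of the 12. Bckdk, which did not pass the test below, also held a CCAAT box, and both windows of Bcat2, which rose, held none of these motifs. A match is a run of letters and not a shown binding site.

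Bcat1 was 7.45-fold higher in Cre_positive glomeruli, and no other member differed by more than 1.71-fold. Of the 9 members other than Bcat1, 4 rose (Bcat2, Dbt, Ivd and Mccc1), none fell and 5 did not pass edgeR's quasi-likelihood test at an adjusted p of 0.05. At an unadjusted p under 0.05 none of these 9 was lower either, nor did DESeq2 or limma voom call one lower. All 9 had a positive log2 fold change, which ran from 0.18 for Bckdk to 0.77 for Ivd, with a median of 0.54. Over all 19927 genes tested the median was -0.0009, 3.73% were called higher and 7.55% in either direction. The groups did not overlap for 8 of these 9, all higher, as for 15.2% of all genes. The members were chosen with this contrast known, so their count is not a test against these shares.

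**Figure D1:**
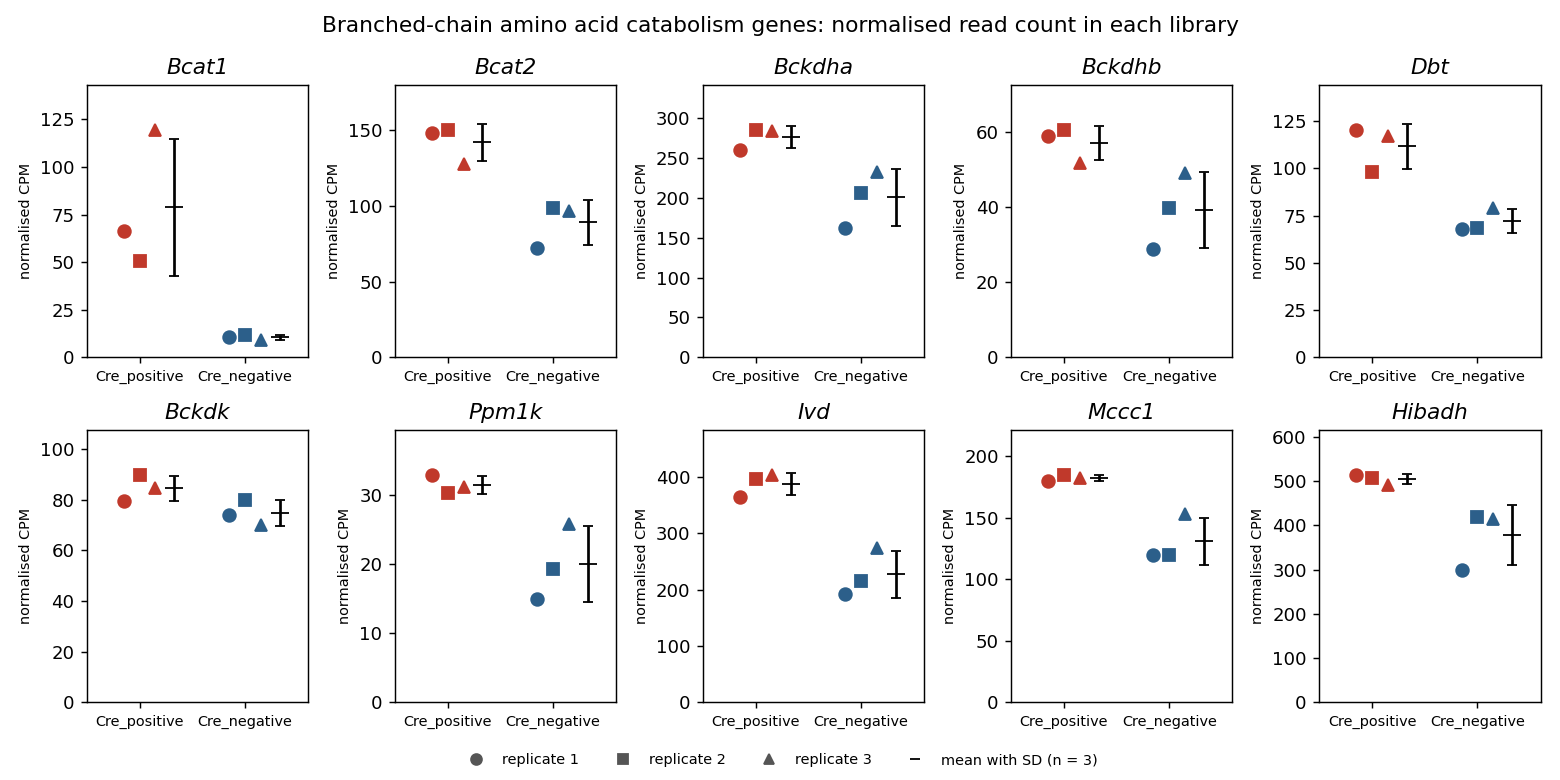
Normalised CPM of the 10 members in each library, from 0 upward, with Cre_positive left of Cre_negative; symbols are replicates and bars are the mean with SD (n = 3). Cre_positive libraries lie above all Cre_negative ones for Bcat1, chosen for its rise, and for 8 of the 9 other members, as for 15.2% of all genes. For Bckdk the groups overlap.

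Bcat1 (ENSMUSG00000030268), the cytosolic transaminase, had 66.5, 50.6 and 119 CPM in Cre_positive replicates 1, 2 and 3, against 10.9, 11.7 and 9.15 CPM in the Cre_negative ones. The lowest Cre_positive library was thus well above the highest Cre_negative one, but the Cre_positive libraries also differed among themselves, with replicate 3 the highest. Means were 78.8 ± 35.9 CPM in Cre_positive and 10.6 ± 1.29 CPM in Cre_negative (SD, n = 3 each). That is a log2 fold change of 2.90 (SE 0.35), or 7.45-fold, given as a description since Bcat1 was chosen for its rise. Leaving out single libraries gave log2 fold changes of 2.47 without Cre_positive replicate 3 to 3.13 without Cre_positive replicate 2.

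Bcat2 (ENSMUSG00000030826), the mitochondrial transaminase, had 148, 149.7 and 128 CPM in Cre_positive replicates 1, 2 and 3, against 71.9, 98.4 and 96.6 CPM in Cre_negative. The groups did not overlap, and Cre_negative replicate 1 was the lowest library. Bcat2 rose by 0.67 on the log2 scale (SE 0.13, adjusted p = 0.0168 in edgeR's quasi-likelihood test). The call ended without Cre_positive replicate 1 (adjusted p = 0.0657 in edgeR) and without replicate 2 (0.0726). An antisense gene, 0610005C13Rik, overlaps exons of Bcat2 on the other strand and had 150.2, 148 and 142 CPM in Cre_positive against 72.5, 107 and 111 CPM in Cre_negative (log2 fold change 0.60, SE 0.15, adjusted p = 0.0527). Whether the counting used strand is not stated in the labels, so reads of the 2 genes may not have been told apart.

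The balance of the transaminases was also described per length, in CPM per kilobase of the principal transcript. Bcat1 stood at 0.311, 0.234 and 0.647 of the Bcat2 level in Cre_positive replicates 1, 2 and 3, against 0.105, 0.0822 and 0.0657 in Cre_negative. As counted, Bcat2 was the more abundant transcript in all 6 libraries. Its counts may in part be reads of 0610005C13Rik, by an amount not known, so its level and these ratios are uncertain. With the length of all annotated exons (a choice added after seeing the data) in place of the principal transcript, the mean ratio was 0.240 in Cre_positive and 0.0509 in Cre_negative.

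Of 4 subunit genes of the ketoacid dehydrogenase complex, Dbt rose and the other 3 did not pass. Dbt, the E2 core that transfers the acyl group, had 120.0, 97.9 and 117 CPM in Cre_positive replicates 1, 2 and 3, against 68.1, 68.6 and 79.2 CPM in Cre_negative. It rose by 0.63 on the log2 scale (SE 0.098, adjusted p = 0.00763 in edgeR's quasi-likelihood test). Of the 9 members other than Bcat1, Dbt alone kept its call whichever single library was left out (adjusted p up to 0.0486 in edgeR).

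Bckdha, the E1 alpha subunit that BCKDK phosphorylates, had 259.8, 285 and 283 CPM in Cre_positive and 162, 206 and 233 CPM in Cre_negative. Its log2 fold change of 0.46 (SE 0.12) did not pass (adjusted p = 0.0600 in edgeR). Bckdhb, the E1 beta subunit, had 58.8, 60.4 and 51.8 CPM in Cre_positive and 28.8, 39.8 and 49.1 CPM in Cre_negative, a log2 fold change of 0.54 (SE 0.18) that did not pass (adjusted p = 0.122 in edgeR). For both, all Cre_positive libraries were above all Cre_negative ones, but Cre_negative replicate 3 lay close to them. Without that replicate both passed (adjusted p = 0.0186 for Bckdha and 0.0211 for Bckdhb in edgeR), as they did with DESeq2 (0.00392 for Bckdha and 0.0139 for Bckdhb). Bckdha also passed in edgeR when genes had to reach 1 CPM in 3 libraries to be tested (0.0496). With the replicate number as a block in the edgeR fit it passed too (0.0271). Dld, the E3 subunit that the complex shares with pyruvate dehydrogenase, averaged 291 ± 12.2 CPM in Cre_positive and 293 ± 6.23 CPM in Cre_negative (SD, n = 3 each). Its log2 fold change was -0.01, with a 95% confidence interval of -0.17 to 0.15.

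Per kilobase, the E1 beta and E2 transcripts stood in a similar proportion to E1 alpha in both genotypes. Bckdhb was at 0.267 ± 0.0285 of Bckdha in Cre_positive and 0.250 ± 0.0217 in Cre_negative (SD, n = 3 each). Dbt was at 0.234 ± 0.0341 of Bckdha in Cre_positive and 0.209 ± 0.0277 in Cre_negative. Both differences were within 1 SD of either group.

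The regulators of the complex were not called. Bckdk, the kinase that switches it off, had 79.3, 89.6 and 84.4 CPM in Cre_positive replicates 1, 2 and 3, against 74.2, 79.97 and 70.0 CPM in Cre_negative. The groups overlapped, and the log2 fold change of 0.18 (SE 0.078, adjusted p = 0.215 in edgeR) had a 95% confidence interval reaching 0.35, or 1.28-fold. Ppm1k, the phosphatase that switches the complex on, had 32.8, 30.2 and 31.2 CPM in Cre_positive, against 15.0, 19.2 and 25.8 CPM in Cre_negative. Its libraries were close together in Cre_positive and spread out in Cre_negative. The log2 fold change of 0.65 (SE 0.18) did not pass (adjusted p = 0.0637 in edgeR), but it passed with limma voom (0.0487), with DESeq2 (0.00359) and in edgeR without Cre_negative replicate 3 (0.00648).

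The kinase to phosphatase ratio per kilobase was 3.95, 4.84 and 4.42 in Cre_positive replicates 1, 2 and 3, against 8.07, 6.79 and 4.43 in Cre_negative. Cre_negative replicate 3 fell within the Cre_positive range, so the groups overlapped.

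The leucine route held the largest change among the members downstream of transamination. Ivd, isovaleryl-CoA dehydrogenase, which takes the first step after the complex, had 365, 395 and 402 CPM in Cre_positive replicates 1, 2 and 3, against 192, 215 and 274 CPM in Cre_negative. It rose by 0.77 on the log2 scale (SE 0.13, adjusted p = 0.00997 in edgeR's quasi-likelihood test), or 1.71-fold, and its call ended without Cre_positive replicate 3 (adjusted p = 0.0557). Mccc1, the biotin-carrying subunit of methylcrotonyl-CoA carboxylase, had 179, 184 and 182 CPM in Cre_positive, against 119.8, 120.0 and 153 CPM in Cre_negative.

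Mccc1 varied least of the members within Cre_positive, and it rose by 0.47 on the log2 scale (SE 0.10, adjusted p = 0.0250 in edgeR). That call was lost when any Cre_positive library was left out (adjusted p = 0.0796 without replicate 1, 0.0967 without replicate 2 and 0.101 without replicate 3) and without Cre_negative replicate 1 (0.0595) or 2 (0.0692). In the valine route, Hibadh, 3-hydroxyisobutyrate dehydrogenase, had 512, 507 and 491 CPM in Cre_positive, against 299, 418 and 415 CPM in Cre_negative. Its log2 fold change of 0.42 (SE 0.13) did not pass (adjusted p = 0.0852 in edgeR), except with DESeq2 (0.00987).

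Leaving out any Cre_positive library bore on these calls, the one with almost no Xist included. Without Cre_positive replicate 2, 2 of the 9 members other than Bcat1 passed, Dbt (log2 fold change 0.72, adjusted p = 0.0117 in edgeR) and Ivd (0.76, adjusted p = 0.0482), and over all genes 605 were called in place of 1505, with 1.37% higher. Without Cre_positive replicate 1, 2 of the 9 passed as well (Dbt and Ivd), with 700 genes called over all and 1.67% higher. Without Cre_positive replicate 3, 2 passed (Bcat2 and Dbt), with 462 genes called over all and 0.989% higher. All 9 log2 fold changes stayed positive whichever single library was left out. Without Cre_negative replicate 3, 7 of the 9 passed and none fell, while calls over all genes also went up, to 2039, with 4.80% higher.

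**Figure D2:**
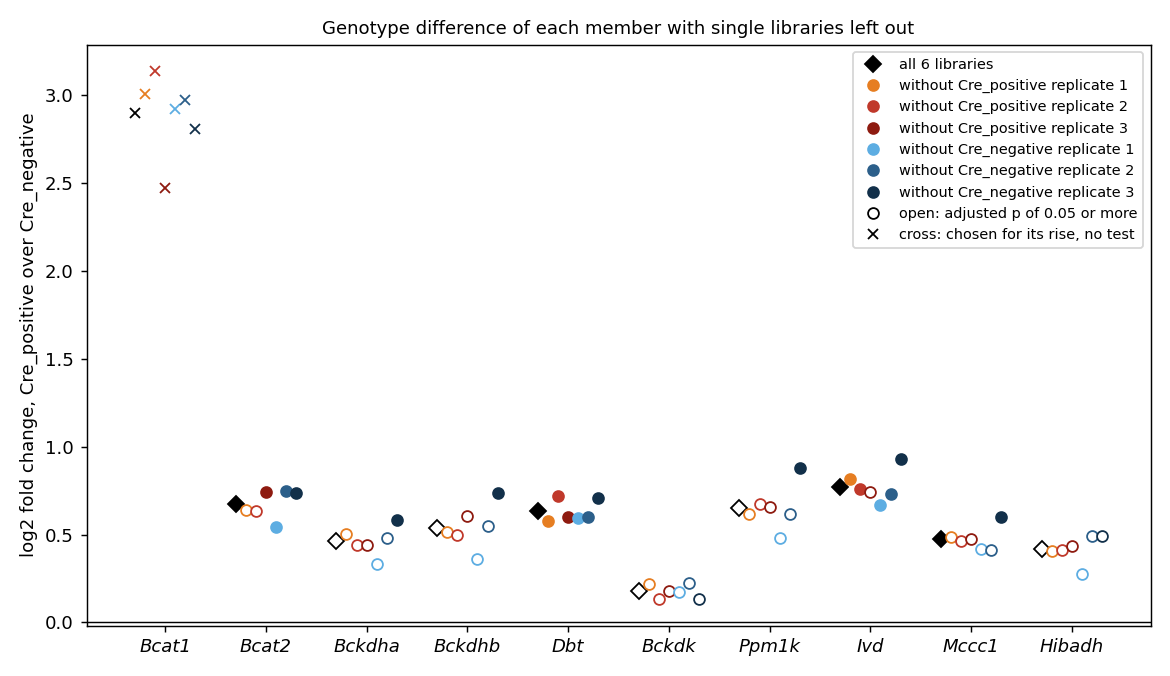
Log2 fold change of each member, Cre_positive over Cre_negative, with all 6 libraries (diamonds, or a black cross for Bcat1) and with each library left out (circles or coloured crosses); open symbols did not pass an adjusted p of 0.05. Dbt keeps filled symbols throughout, and Bckdk and Hibadh show open symbols throughout.

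The Cre_negative libraries were the more variable ones for these genes, which was not particular to them. Over genes with at least 50 counts in all, pairs of Cre_negative libraries differed by a chi-square per degree of freedom of 49.2 to 71.2. Pairs of Cre_positive libraries differed by 20.6 to 26.4. The coefficient of variation was larger in Cre_negative for 8 of 10 members, the exceptions being Bcat1 (45.6% in Cre_positive, 12.2% in Cre_negative) and Dbt (10.8% in Cre_positive, 8.70% in Cre_negative). In Ppm1k it was 4.12% in Cre_positive and 27.3% in Cre_negative. Replicate 1 was the lowest Cre_negative library for 8 of 10 members, and replicate 3 the highest for 6. The 9 members other than Bcat1 summed to 1756, 1799 and 1771 CPM in Cre_positive replicates 1, 2 and 3, against 1032, 1264 and 1396 CPM in Cre_negative.

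Markers of other kidney cells moved with the genotype as well. Over all genes tested, edgeR called 3.73% higher and 3.82% lower. Of 14 proximal tubule markers, 6 rose, none fell and 8 did not pass in edgeR (1 was lower at an unadjusted p under 0.05, and DESeq2 called 1 lower). Kap differed most, at 6372 ± 686 CPM in Cre_positive and 244 ± 177 CPM in Cre_negative (SD, n = 3 each). It rose by 4.71 on the log2 scale (SE 0.59, adjusted p = 0.0132 in edgeR's quasi-likelihood test). Summed without Kap, the other 13 stood at 14843 to 15942 CPM in Cre_positive and 10040.3 to 11686 CPM in Cre_negative. With Kap included, the 14 summed to 21524 to 21764 CPM in Cre_positive and 10178 to 11832 CPM in Cre_negative. Of 8 injured tubule markers, 5 fell, while none rose (none was higher at an unadjusted p under 0.05 or by DESeq2). DESeq2 called 7 of these 8 lower. Their sum was 1795 to 2011 CPM in Cre_positive, against 10812, 5300 and 3576 CPM in Cre_negative replicates 1, 2 and 3. Most of that sum was Spp1, named after its values were seen. It had 1625 to 1873 CPM in Cre_positive, against 10031, 4955 and 3314 CPM in Cre_negative replicates 1, 2 and 3. Spp1 itself did not pass (adjusted p = 0.0572 in edgeR), so the sum does not speak for the other markers.

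Among 8 markers of loop, distal and collecting duct cells, 5 rose, where 3.73% of all genes were called higher and 3.82% lower. Of 10 podocyte markers, 3 rose and 1 fell. Of 8 endothelial markers, 7 rose, and their sum was 779 to 862 CPM in Cre_positive and 532 to 589.9 CPM in Cre_negative. Of 6 mesangial markers, 2 rose and 1 fell, with sums of 357 to 381 CPM in Cre_positive and 268 to 359 CPM in Cre_negative. Of 8 macrophage markers, 1 fell in edgeR, 5 were called lower with DESeq2 and 6 were lower at an unadjusted p under 0.05, with sums of 165 to 178 CPM in Cre_positive and 166 to 301 CPM in Cre_negative. No marker in these lists was at 0 in every library. Their part in the member differences was not tested, and in bulk samples fewer cells of a type and less RNA per cell cannot be told apart.

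By level, the members spanned a wide range. Per kilobase of the principal transcript, Hibadh had the highest level, at 276 ± 6.06 CPM per kilobase in Cre_positive and 207 ± 37.0 in Cre_negative (SD, n = 3 each). Bckdha followed at 145 ± 7.34 in Cre_positive and 106 ± 18.7 in Cre_negative, and Ivd at 106 ± 5.41 in Cre_positive and 62.0 ± 11.5 in Cre_negative. Bcat2 (80.03 ± 6.86 in Cre_positive and 50.2 ± 8.34 in Cre_negative) and Mccc1 (74.1 ± 0.971 in Cre_positive and 53.3 ± 7.76 in Cre_negative) were neighbours that did not differ beyond their spread in either genotype.

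Bckdhb, Dbt, Bcat1 and Bckdk came next in Cre_positive, with Bcat1 at 30.8 ± 14.1 CPM per kilobase, and its libraries spanned the means of Bckdhb (38.7), Dbt (33.8) and Bckdk (24.8). In Cre_negative, Bcat1 was at 4.14 ± 0.505, next to Ppm1k, the lowest member, at 3.60 ± 0.983, and these did not differ beyond their spread. Ppm1k was lowest in Cre_positive too, at 5.65 ± 0.233. Lengths come from GENCODE M21, and with the length of all annotated exons, a choice added after seeing the data, Bckdha ranked first, followed by Ivd and Hibadh, and Bcat1 in place of Ppm1k was the lowest in Cre_negative. The order thus rests on the transcript model.

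The other genes of the pathway were taken from a list of 24. Of these, 9 rose, 2 fell and 13 did not pass in edgeR, with a median log2 fold change of 0.20, against 3.73% of all genes called higher and 3.82% called lower. Pcca, Acadsb, Abat and Echs1 had the smallest p. The enzymes named below beside these were named by their place in the routes after their values were seen.

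Propionyl-CoA, which isoleucine and valine both yield, is carboxylated by the product of Pcca and Pccb. Pcca had 181, 172 and 171 CPM in Cre_positive replicates 1, 2 and 3, against 103, 113 and 114 CPM in Cre_negative. It rose by 0.66 on the log2 scale (SE 0.070, adjusted p = 0.00154 in edgeR) and kept its call whichever library was left out. Pccb rose by 0.49 (SE 0.12, adjusted p = 0.0490 in edgeR) and Mmut, the mutase that makes succinyl-CoA, by 0.43 (SE 0.097, adjusted p = 0.0314 in edgeR). Of the 6 fits that leave out 1 library, Pccb and Mmut were called only in the one without Cre_negative replicate 3, with adjusted p up to 0.157 for Pccb and 0.132 for Mmut in the others. Mcee, the epimerase between them, had a log2 fold change of 0.0025 (SE 0.084) with a 95% confidence interval of -0.19 to 0.19.

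Acadsb, which oxidises the isoleucine product, had 192, 170.1 and 184 CPM in Cre_positive and 102, 115 and 125 CPM in Cre_negative. It rose by 0.68 on the log2 scale (SE 0.090, adjusted p = 0.00402 in edgeR). Echs1, the enoyl-CoA hydratase used by both isoleucine and valine, rose by 0.53 (SE 0.080, adjusted p = 0.00669 in edgeR). Acat1, the thiolase at the end of the isoleucine and leucine routes, rose by 0.48 (SE 0.080, adjusted p = 0.0101 in edgeR). Hadha and Hadhb, the subunits of the trifunctional protein better known from long-chain fatty acid oxidation, fell by 0.45 (SE 0.087, adjusted p = 0.0184 in edgeR) and by 0.37 (SE 0.087, adjusted p = 0.0386 in edgeR) on the log2 scale. Leaving out any Cre_positive library ended both calls (with values up to 0.0873 for Hadha and 0.142 for Hadhb), and that of Hadhb also without Cre_negative replicate 2 (0.0679). The Acat1 call ended without Cre_positive replicate 3 (0.0579).

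Further along the leucine route, Mccc2, the partner subunit of Mccc1, rose by 0.40 (SE 0.096, adjusted p = 0.0421 in edgeR) and Auh, the hydratase after it, by 0.30 (SE 0.075, adjusted p = 0.0441 in edgeR). Mccc2 and Auh, too, were called only without Cre_negative replicate 3 when single libraries were left out (adjusted p up to 0.147 for Mccc2 and 0.141 for Auh in the other fits). In the valine route none of 4 genes was called by edgeR, although at an unadjusted p under 0.05 2 of them were higher, as with DESeq2, and limma voom called 1. Besides Hibadh these were Aldh6a1 (log2 fold change 0.41, SE 0.11, adjusted p = 0.0534 in edgeR, and 0.0377 without Cre_negative replicate 3), Acad8 (-0.02, SE 0.081) and Hibch (-0.10, SE 0.11).

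Abat, a transaminase best known for breaking down GABA, had 453, 461 and 489.8 CPM in Cre_positive and 222, 227 and 305 CPM in Cre_negative. It rose by 0.90 on the log2 scale (SE 0.12, adjusted p = 0.00472 in edgeR). No cobalamin or biotin handling gene was called out of 5 (edgeR), where 1 was higher and 2 were lower at an unadjusted p under 0.05. DESeq2 called 1 of the 5 higher and limma voom none.

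**Figure D3:**
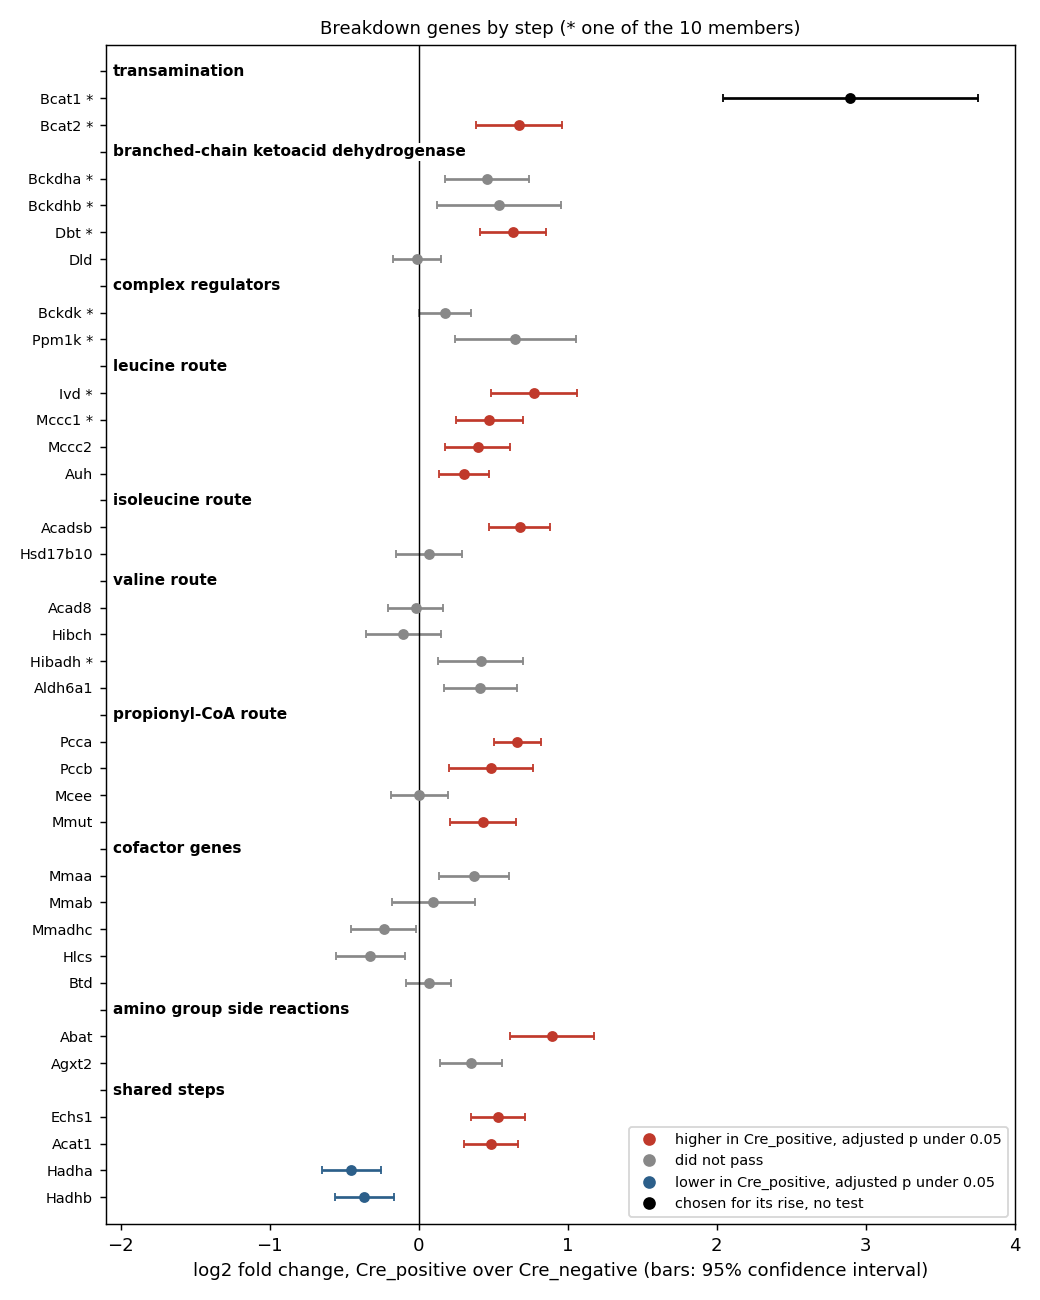
Log2 fold change, Cre_positive over Cre_negative, of the breakdown genes ordered by step, with 95% confidence intervals. Asterisks mark the 10 members and colour gives the edgeR call. Bcat1, in black, was chosen for its rise, so its interval is no test. Ivd, Mccc1, Mccc2 and Auh of the leucine route and 3 of 4 propionyl-CoA genes lie above 0 as called, none of 4 valine genes is called, and Hadha and Hadhb lie below 0.

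Carriers of branched-chain and other neutral amino acids rose in part. Of 12 genes, 6 rose and 6 did not pass in edgeR, and none fell (1 was lower at an unadjusted p under 0.05, and DESeq2 and limma voom called none lower). Over all genes 3.73% were called higher. Slc7a7, a basolateral exchanger subunit, had 188, 179 and 202 CPM in Cre_positive replicates 1, 2 and 3, against 116, 94.7 and 95.6 CPM in Cre_negative, a rise of 0.89 on the log2 scale (SE 0.096, adjusted p = 0.00160 in edgeR). Slc7a8, which encodes the neutral exchanger LAT2, had 515, 415 and 462 CPM in Cre_positive and 269.7, 244 and 258 CPM in Cre_negative, a rise of 0.85 (SE 0.095, adjusted p = 0.00186 in edgeR).

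Slc6a19, the apical neutral amino acid carrier of the proximal tubule, rose by 0.75 (SE 0.11, adjusted p = 0.00598 in edgeR). Slc3a2, the heavy chain that Slc7a7 and Slc7a8 products need, rose by 0.49 (SE 0.080, adjusted p = 0.00960 in edgeR), and its call ended without Cre_positive replicate 3 (0.0608). Named after its values were seen, Slc6a15, a carrier that prefers branched-chain amino acids, had 107, 59.2 and 79.2 CPM in Cre_positive and 22.8, 32.8 and 33.9 CPM in Cre_negative (log2 fold change 1.46, SE 0.25, adjusted p = 0.0214 in edgeR). That call ended without Cre_positive replicate 3 (0.0685), Cre_negative replicate 1 (0.0607) or Cre_negative replicate 2 (0.0707). Also named afterwards, Slc25a44, the mitochondrial carrier for branched-chain amino acids, averaged 51.8 ± 2.36 CPM in Cre_positive and 56.0 ± 3.97 CPM in Cre_negative (SD, n = 3 each), with a log2 fold change of -0.11 (95% confidence interval -0.29 to 0.07).

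Gpt and Gpt2, which pass amino groups on to alanine, fell. Among 8 glutamate and nitrogen genes edgeR called 3 lower and none higher, and 5 did not pass (1 was higher at an unadjusted p under 0.05, and DESeq2 and limma voom called none higher), against 3.82% of all genes called lower. Gpt, the cytosolic alanine transaminase, had 10.1, 11.0 and 10.3 CPM in Cre_positive replicates 1, 2 and 3, against 21.4, 27.1 and 22.7 CPM in Cre_negative, and fell by 1.18 on the log2 scale (SE 0.12, adjusted p = 0.00122 in edgeR). Its groups did not overlap, and its call was kept whichever library was left out. Gpt2, the mitochondrial alanine transaminase, fell by 0.62 (SE 0.12, adjusted p = 0.0207 in edgeR), and its call ended without Cre_positive replicate 1 (0.0675), 2 (0.0687) or 3 (0.0567).

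Of 9 regulators and leucine sensors, Sesn2 alone was called by edgeR, and it fell by 0.41 on the log2 scale (SE 0.10, adjusted p = 0.0474). Sesn2 encodes a leucine-binding inhibitor of mTORC1 signalling and is also a p53 target. With all 6 libraries its call ended with limma voom (0.0561), with robust=FALSE in edgeR (0.0560) and with the replicate number as a block in edgeR (0.0645). Its call also ended without Cre_positive replicate 1 (0.156) or 3 (0.171) and without Cre_negative replicate 1 (0.0857) or 3 (0.0904). None of the 9 was higher in edgeR or limma voom, while 2 were at an unadjusted p under 0.05 and 1 with DESeq2, and 3.82% of all genes were called lower. Klf15, a transcription factor known to raise branched-chain amino acid breakdown in muscle and heart, had 79.99, 93.2 and 88.6 CPM in Cre_positive and 40.0, 60.5 and 66.7 CPM in Cre_negative, without overlap. Named after its values were seen, it had a log2 fold change of 0.65 (SE 0.18) that did not pass (adjusted p = 0.0763 in edgeR), but it passed without Cre_negative replicate 1 (0.0264) or 3 (0.0361).

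**Figure D4:**
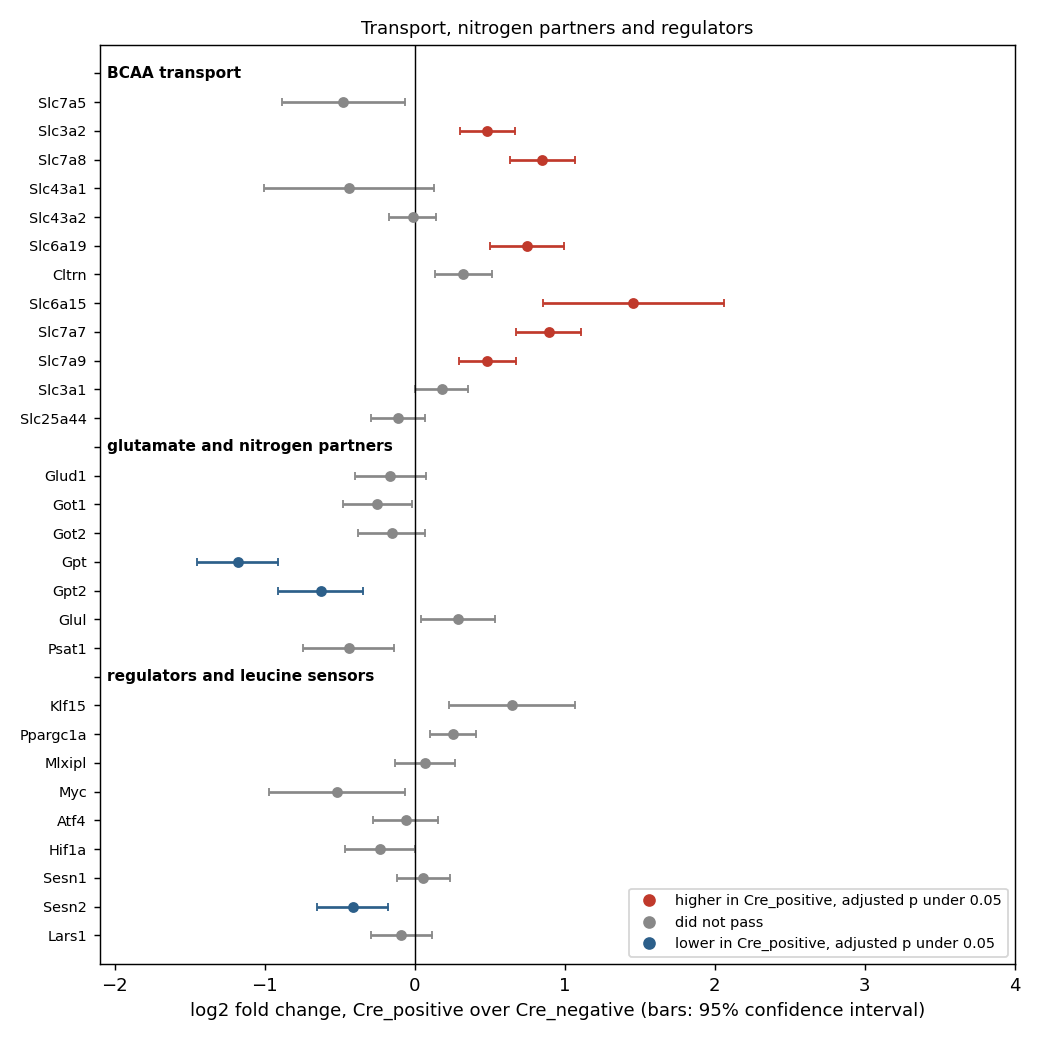
Log2 fold change, Cre_positive over Cre_negative, with 95% confidence intervals for the carriers, the glutamate and nitrogen genes and the regulators; colour gives the edgeR call. Among the carriers 6 lie above 0 as called, and among the nitrogen genes Gpt and Gpt2 lie below 0 as called.

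Genes outside these lists whose pattern was most like that of Bcat1 were taken by Pearson's r of log2 CPM over the 6 libraries. The libraries form 2 groups by genotype, so a high r needs a genotype difference first and is given only as a description. The 5 closest were Slitrk1 (r = 0.990), Car5b (0.990), Lima1 (0.989), Kank4 (0.988) and Slc35e1 (0.988). Slitrk1, which encodes a neuronal membrane protein, had 3.26, 2.46 and 4.44 CPM in Cre_positive replicates 1, 2 and 3, against 0.856, 0.716 and 0.515 CPM in Cre_negative. As with Bcat1, its highest library was Cre_positive replicate 3, which the choice by r made likely. Car5b, a mitochondrial carbonic anhydrase, averaged 109 CPM in Cre_positive and 90.7 CPM in Cre_negative, a far smaller difference along the same pattern.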

How the data were processed

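RNA was measured in 6 glomerular samples, 3 Cre_positive and 3 Cre_negative. Per the labels' protocols, polyadenylated RNA was sequenced as strand-marked read pairs. Raw counts, as the authors deposited them, stand in 1 table by Ensembl gene ID. Per the submitters' processing notes, fastp, HISAT2, StringTie, edgeR and GRCm39 were used, without roles or order. No counting settings are stated there.

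The unchanged counts were fitted in edgeR 4.0.16 (R 4.3.3): filterByExpr, TMM factors (0.979 to 1.03), the quasi-likelihood test (robust=TRUE) over all 19927 genes and Benjamini-Hochberg adjustment at 0.05. CPM are TMM-scaled. Standard errors are the log2 fold change over the square root of F. Alternatives were limma 3.58.1 (voom), DESeq2 1.42.0, other scalings and filters, a replicate block and leaving out each library. Symbols covered 51880 of 57132 rows; Mmut and Lars1 were matched through older symbols. No 2 libraries agreed within sampling noise (chi-square per degree of freedom at least 20.6).

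The members, lists and tests were chosen with earlier results of these data known. A few listed genes are counted in their lists but are not reported here by name. The rule named the 10 members, Setdb2, up to 4 called genes per pathway list by smallest p, and the 5 genes closest to Bcat1. Counts were also simulated for this comparison, with 200 genes changed and 19292 tested. There 41.8% of 1.5-fold, 74.6% of 2-fold and 92.4% of 4-fold changes were called, and 10.3% of calls were unchanged genes.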

Additional observations from a re-analysis of the deposited data

How the results depend on the processing

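Over the 22 genes other than Bcat1 named by the rule and 14 alternatives, 278 of 308 recomputed log2 fold changes kept their direction and their side of the threshold, 19 lost a call, 10 gained one and 1 reversed. The reversal was Setdb2, at 0.0024 without Cre_negative replicate 1, and leaving out single libraries gave log2 fold changes from -0.2675 to 0.0024. Of the 9 members other than Bcat1, 4 were called higher. DESeq2 called 8 of them higher and 2568 genes in all, against 1505. Leaving out single libraries gave 2 to 7 of them called higher, 4 to 10 other breakdown genes called higher, 0 to 2 called lower and 462 to 2039 genes in all. None of the 9 was called lower under any alternative run. The causes were not tested, although the fits without 1 library have fewer samples.

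Whether the shared replicate numbers pair the samples is not settled by the data. Same-numbered libraries deviated together from their group means with correlations of 0.0547, 0.0551 and 0.0173. Every library correlated best with its own number, a hint from the data only, and small correlations do not show that the samples are unpaired. For number 3 the lead was slight. Its 0.0173 stood against 0.017 for Cre_negative replicate 3 with Cre_positive replicate 2. Cre_positive replicate 3 had 0.0122 with Cre_negative replicate 1. With the replicate block 5 of the 9 members and 1541 genes were called, Bckdha passed (adjusted p = 0.0271 in edgeR) and Sesn2 did not (0.0645), and of the other breakdown genes 7 were called higher and 1 lower. Scaling moved the median of all genes by less than 0.1 on the log2 scale. With 3 libraries a group, genes changed by 1.5-fold were called in 41.8% of simulated cases. That simulation changed 200 genes, where 1505 were called in the data, so the share may differ for the members. A member that did not pass is not shown to be unchanged.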
